A study of Homo sapiens with 12 samples.

Results

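MT-TT and MT-TP encode the mitochondrial tRNAs for threonine and proline (mt-tRNA Thr and mt-tRNA Pro), the pair of genes that lies beside the control region of the human mitochondrial genome. They were taken by name, 2 of the 22 mt-tRNAs measured by MPAT-Seq and 2 of the 35 mitochondrial genes counted by RNA-seq. MPAT-Seq sequences the 3′ ends of mt-tRNAs after ligation of an oligonucleotide, reverse transcription and PCR with a primer for each mt-tRNA. HEK293T cells, an established human embryonic kidney line, gave 6 such libraries, 1 per condition. The conditions were PDE12+/+, PDE12-/-, PDE12-/- expressing wild-type PDE12 (PDE12-/- + WT), PDE12-/- expressing the catalytic mutant E351A (PDE12-/- + E351A), and PDE12+/+ and PDE12-/- with the mitochondrial poly(A) polymerase overexpressed (+ mtPAP). RNA-seq of isolated mitochondria covered 3 PDE12+/+ and 3 PDE12-/- samples. The paper's main knockout line was made with zinc finger nucleases and is 1 clone, and the added proteins were expressed from inducible transgenes. The paper also made further knockout clones, and does not name the clone that was sequenced. For the mtPAP libraries, the names of the tables and the labels give opposite genotypes. They are called here by the names of their tables, and the differences in extension from the matching library without mtPAP are given both ways. All other values of these libraries are given by table name alone. The tables hold mitochondrial genes alone, and the identity of the cell line and the loss of PDE12 were not checked here.

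Mitochondrial genes are transcribed as long precursors from both strands, and mt-tRNAs are cut out of them at both ends. A nucleotidyltransferase then adds CCA to the discriminator base, the last encoded base, and an amino acid can be joined only to the A of this CCA. mtPAP adds adenines to the 3′ ends of mitochondrial RNAs, and PDE12 is a nuclease that removes adenines from such ends. MT-TT is the last gene of the + strand before the control region, and MT-TP is the first gene of the − strand after it.

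The genes stand tail to tail. MT-TT lies on the + strand at chrM:15888-15953 (GRCh38, GENCODE release 44) and MT-TP on the − strand at chrM:15956-16023. Each is a single exon without introns or UTRs, of 66 and 68 nt. The 2 bases at chrM:15954-15955 part them, and the control region begins at 16024. The bases that follow each gene on its own strand, its trailer, are shown because a read that carries them in place of CCA runs past the encoded end of the mt-tRNA. In the lines below, the gene is in lower case and the first 11 bases of the trailer are in capitals.
MT-TT: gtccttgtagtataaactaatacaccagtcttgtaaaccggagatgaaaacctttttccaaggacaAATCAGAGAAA
MT-TP: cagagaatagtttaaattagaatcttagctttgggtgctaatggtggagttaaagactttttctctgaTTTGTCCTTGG
Both genes end in A, so the discriminator base is the same. Position +1 is the first base after it, +1 to +3 are CCA in a mature mt-tRNA, and +4 is the first base beyond CCA. The primers of the assay, shown because they set which part of each mt-tRNA was read, were as follows.
MT-TT primer: gtccttgtagtataaactaatacacc
MT-TP primer: gagaatagtttaaattagaatcttag
They match bases 1 to 26 of MT-TT and 3 to 28 of MT-TP, and in each case leave 40 bases up to the end of the gene. The most frequent base at each position from the discriminator base to +11 gave the same end in all 12 tables, 6 for each mt-tRNA, with CCA in capitals.
Most frequent end: aCCAaaaaaaaa

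Reads at +3, the A of CCA, are the base of every percentage of extension. For mt-tRNA Thr they numbered 6049 in PDE12+/+, 2811 in PDE12-/-, 7986 after wild-type PDE12, 21537 after E351A, and 1380 and 5733 under mtPAP in PDE12+/+ and PDE12-/-. For mt-tRNA Pro, in the same order, they numbered 2973, 583, 2381, 10523, 486 and 1212. MT-TP in PDE12-/- and in PDE12+/+ with mtPAP thus has the widest intervals. The smallest share these depths can show, taken as 3 reads, ran from 0.0139% for MT-TT with E351A to 0.617% for MT-TP in PDE12+/+ with mtPAP. Intervals are 95% Wilson intervals for a share and 95% Newcombe intervals for a difference. They cover the counting error of reads only. PCR reads without molecular identifiers are not independent molecules, so these intervals, and counts of mt-tRNAs with intervals apart, can overstate the certainty. With 1 library per condition no p-value is given and differences have no replicate check. The paper cautions that modified bases affect reverse transcription in this assay, and that it may over-represent the extension of unmodified molecules. Shares, gaps and ranks of mt-tRNAs below are therefore those of reads, and may differ from those of the mt-tRNA pools.

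The share of reads extended beyond CCA was higher in PDE12-/- for both mt-tRNAs, and reached nearly the same level. For mt-tRNA Thr, 18.9% of reads (17.9 to 19.9) were extended in PDE12+/+ and 42.6% (40.8 to 44.5) in PDE12-/-. For mt-tRNA Pro, 23.1% (21.7 to 24.7) and 42.4% (38.4 to 46.4) were extended. The difference was 23.7 percentage points (21.7 to 25.8) for mt-tRNA Thr and 19.2 points (15.0 to 23.5) for mt-tRNA Pro. Intervals were apart for both, as they were, with the higher value in PDE12-/-, for 16 of the 22 mt-tRNAs (72.7%), so the higher value itself does not set the pair apart. By size of the difference they were the 8th and 9th of 22. The medians over all 22 mt-tRNAs were 12.8% and 34.5%.

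With wild-type PDE12 expressed in PDE12-/-, extension was below the level of PDE12+/+. It was 9.04% (8.43 to 9.69) for mt-tRNA Thr and 9.32% (8.22 to 10.6) for mt-tRNA Pro. Against PDE12-/- the differences were −33.6 points (−35.5 to −31.6) and −33.0 points (−37.2 to −28.9). Of the 22 mt-tRNAs, 18 (81.8%) were lower with intervals apart. Against PDE12+/+ the difference was −9.84 points (−11.0 to −8.67) for mt-tRNA Thr and −13.8 points (−15.7 to −11.9) for mt-tRNA Pro, where 11 of 22 mt-tRNAs (50%) were lower with intervals apart.

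The catalytic mutant parted the pair. With E351A, 88.4% (87.9 to 88.8) of mt-tRNA Thr reads were extended but only 48.4% (47.4 to 49.3) of mt-tRNA Pro reads. Against PDE12-/- this was 45.8 points higher (43.9 to 47.6) for mt-tRNA Thr, the third largest difference of 22, and 6.02 points higher (1.86 to 10.1) for mt-tRNA Pro, the 18th of 22. In this comparison 18 of 22 mt-tRNAs (81.8%) were higher with intervals apart. The direction for mt-tRNA Pro depends on where extension is counted. With reads at +5 in place of +4, which asks for at least 2 added bases, mt-tRNA Pro with E351A differed from PDE12-/- by −5.17 points (−9.32 to −1.12).

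Extension was higher with mtPAP in both genotypes. In PDE12+/+ with mtPAP, 68.04% (65.5 to 70.5) of mt-tRNA Thr reads and 87.2% (84.0 to 89.9) of mt-tRNA Pro reads were extended, the latter the highest of the 22 mt-tRNAs in that library. These were 49.2 points (46.5 to 51.8) and 64.1 points (60.5 to 67.2) above PDE12+/+, and 15 of 22 mt-tRNAs (68.2%) were higher with intervals apart. In PDE12-/- with mtPAP, 93.1% (92.4 to 93.7) and 94.6% (93.1 to 95.7) were extended, 50.5 points (48.5 to 52.4) and 52.2 points (47.9 to 56.3) above PDE12-/-, and 20 of 22 (90.9%) were higher with intervals apart. With the genotypes of the labels, the differences became 74.2 and 25.4 points for mt-tRNA Thr, and 71.4 and 44.9 points for mt-tRNA Pro, in PDE12+/+ and PDE12-/- respectively, all of the same sign.

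Set against each other within a library, the pair was alike in some conditions and far apart in others. mt-tRNA Thr minus mt-tRNA Pro was −4.26 points (−6.09 to −2.47) in PDE12+/+, 0.25 points (−4.19 to 4.61) in PDE12-/- and −0.28 points (−1.66 to 1.00) after wild-type PDE12. It was 40.0 points (38.9 to 41.0) with E351A, and under mtPAP −19.2 points (−22.9 to −15.1) in PDE12+/+ and −1.48 points (−2.81 to 0.077) in PDE12-/-. The sign of the gap thus turned between the E351A library and PDE12+/+ with mtPAP. Over the 6 libraries, the mt-tRNAs with the percentages most like those of mt-tRNA Thr were those of MT-TF, MT-TE and MT-TL1, with root mean square differences of 12.5, 17.7 and 18.1 points. For mt-tRNA Pro they were MT-TE, MT-TT and MT-TL1, with 13.3, 18.2 and 21.2 points.

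**Figure D1:**
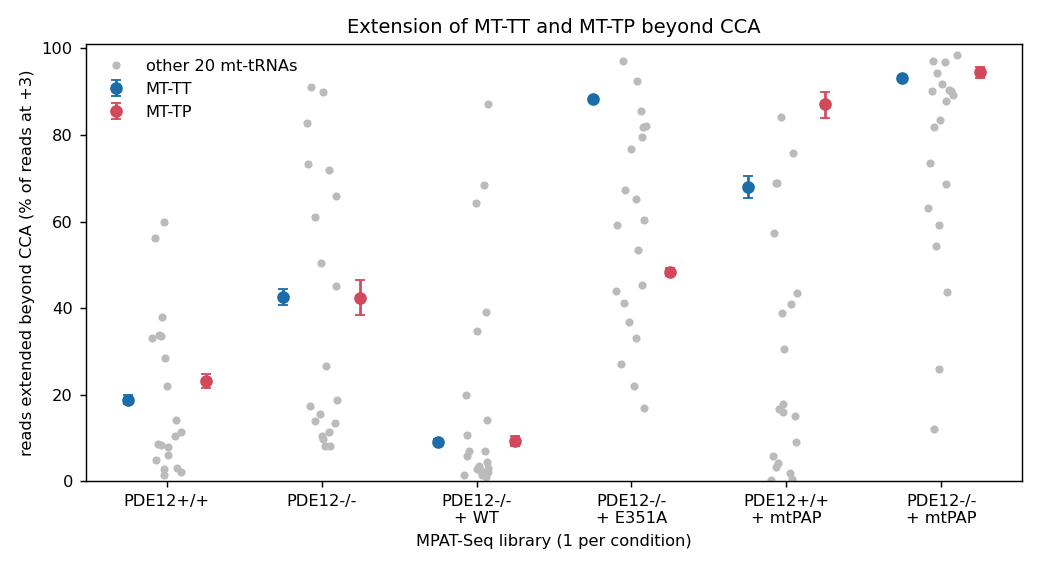
Share of reads extended beyond CCA (y axis, percent of reads at +3) in each MPAT-Seq library (x axis), with MT-TT in blue and MT-TP in red, 95% Wilson intervals as bars and the other 20 mt-tRNAs as grey points. MT-TT and MT-TP nearly coincide in PDE12-/- (42.6% and 42.4%) and with wild-type PDE12 (9.04% and 9.32%), and stand apart with E351A (88.4% and 48.4%).

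The lengths of the extensions differed between PDE12+/+ and PDE12-/- as well. Successive counts give how many reads end at each position. In PDE12+/+, 453 of 1142 extended mt-tRNA Thr reads (39.7%, 36.9 to 42.5) and 227 of 688 extended mt-tRNA Pro reads (33.0%, 29.6 to 36.6) ended after 1 added base. In PDE12-/- this was so for 5 of 1198 (0.417%) and 1 of 247 (0.405%). Extensions of at least 6 nt made up 38.97% (36.2 to 41.8) of extended mt-tRNA Thr reads in PDE12+/+ and 96.5% (95.3 to 97.4) in PDE12-/-, a difference of 57.5 points (54.4 to 60.5). For mt-tRNA Pro they made up 19.0% (16.3 to 22.1) and 87.4% (82.7 to 91.0), a difference of 68.4 points (62.8 to 72.9). Most extended ends in PDE12-/- were thus of at least 6 nt, more so for mt-tRNA Thr than for mt-tRNA Pro.

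As a share of all reads at +3, short and long extensions differed in opposite directions. Extensions of 1 to 3 nt were on 9.31% of mt-tRNA Thr reads (8.60 to 10.1) in PDE12+/+ and on 0.32% (0.17 to 0.61) in PDE12-/-. For mt-tRNA Pro they were on 10.3% (9.22 to 11.4) and 0.51% (0.18 to 1.502). Extensions of at least 6 nt went from 7.36% (6.73 to 8.04) to 41.1% (39.3 to 43.0) of mt-tRNA Thr reads, 5.59-fold higher, and from 4.41% (3.73 to 5.20) to 37.0% (33.2 to 41.0) of mt-tRNA Pro reads, 8.41-fold higher. The percentage extended, which also counts ends of 4 or 5 nt, was 2.26-fold and 1.83-fold higher.

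Short extensions with wild-type PDE12 were more frequent than in PDE12-/- but less than in PDE12+/+. Ends of 1 to 3 nt were on 3.99% (3.59 to 4.45) of mt-tRNA Thr reads at +3 and on 2.98% (2.37 to 3.74) of mt-tRNA Pro reads, differences from PDE12+/+ of −5.31 points (−6.17 to −4.47) and −7.28 points (−8.57 to −5.99). Of the extended reads, 184 of 722 for mt-tRNA Thr (25.5%, 22.4 to 28.8) and 58 of 222 for mt-tRNA Pro (26.1%, 20.8 to 32.3) ended after 1 added base. At least 6 nt were on 41.4% (37.9 to 45.0) and 34.2% (28.3 to 40.7) of the extended reads, and on 3.74% and 3.19% of reads at +3.

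With E351A the lengths of the pair parted as well. Of the extended mt-tRNA Thr reads, 480 of 19034 (2.52%, 2.31 to 2.75) ended after 1 base and 83.9% (83.4 to 84.5) had at least 6 nt. Of the extended mt-tRNA Pro reads, 1196 of 5092 (23.5%, 22.3 to 24.7) ended after 1 base and 48.9% (47.5 to 50.3) had at least 6 nt. mt-tRNA Pro reads with at least 6 nt were 23.7% of reads at +3 with E351A (22.9 to 24.5), which is 13.4 points less than in PDE12-/- (Newcombe interval of the difference −17.5 to −9.48). Those with 1 to 3 nt were 19.8% (19.1 to 20.6), against 0.51% in PDE12-/-. For mt-tRNA Thr both classes were higher with E351A than in PDE12-/-, at 74.2% against 41.1% and 5.88% against 0.32%.

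Extensions were mostly long with mtPAP in both genotypes. In PDE12+/+ with mtPAP, 0 of 939 extended mt-tRNA Thr reads ended after 1 base (upper Wilson limit 0.407%). Of the extended mt-tRNA Pro reads, 4 of 424 did (0.943%). At least 6 nt were on 70.9% (67.9 to 73.7) and 75.7% (71.4 to 79.5) of the extended reads. In PDE12-/- with mtPAP they were on 88.4% (87.5 to 89.2) for mt-tRNA Thr and on 73.1% (70.5 to 75.6) for mt-tRNA Pro. There, 75 of 1146 extended mt-tRNA Pro reads (6.54%, 5.25 to 8.13) ended after 1 base but only 4 of 5336 mt-tRNA Thr reads.

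The longest extension seen, 8 nt, was the same in both mt-tRNAs. No table of the pair went past +11 except MT-TT with E351A, which had 3 reads at +12. The authors mapped reads with Bowtie2 to a reference with uncalled bases after each gene. By default that aligner drops a read once more than 0.15 of its bases, counted over the whole read, face uncalled ones. With the primer's bases counted as part of the read, this limit equalled the longest extension seen, among positions with over 1% of extended reads, in 22 of 22 mt-tRNAs. Without them, as the stated removal of primers before mapping would have it, the limit for both members of the pair would be 4 nt, shorter than what was seen. The setting is not given in the sources used here, and whether this limit set the longest extension was not tested. At the last position, 55.3% (52.5 to 58.1) of extended mt-tRNA Thr reads and 31.6% (26.1 to 37.6) of extended mt-tRNA Pro reads in PDE12-/- were still present, against 14.4% and 5.96% in PDE12+/+. Longer ends, if lost in mapping, would be missing from every percentage above.

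**Figure D2:**
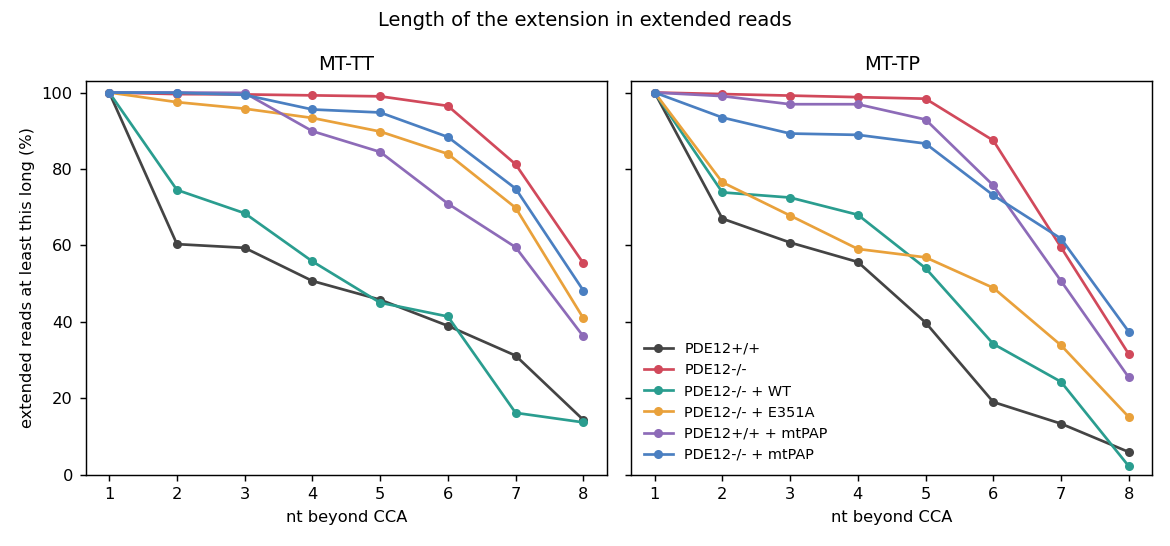
Share of extended reads (y axis, percent) that reached each length beyond CCA (x axis, nt), for MT-TT on the left and MT-TP on the right, with 1 line per library. In PDE12-/- 99.6% of extended reads of both mt-tRNAs had at least 2 nt, against 60.3% for MT-TT and 67.0% for MT-TP in PDE12+/+.

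**Figure D3:**
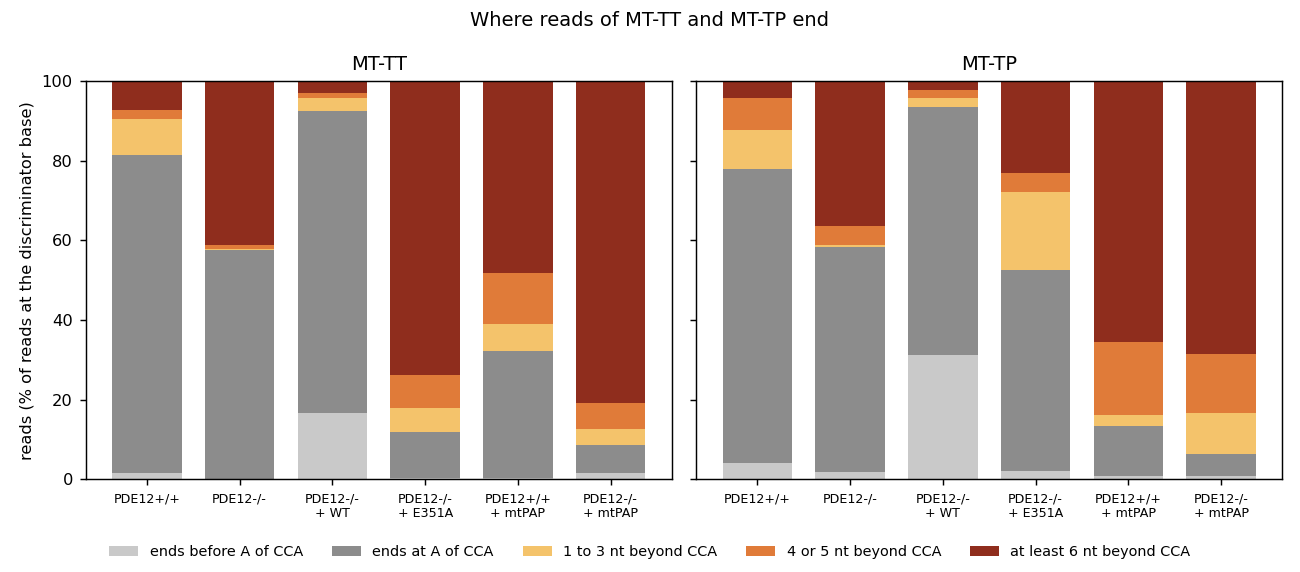
Where reads end (y axis, percent of reads at the discriminator base) in each library (x axis), split into ends before the A of CCA, at that A, and 1 to 3, 4 or 5, or at least 6 nt beyond it. Ends before the A stand out with wild-type PDE12 (16.8% for MT-TT and 31.2% for MT-TP), and ends of 1 to 3 nt are nearly absent in PDE12-/-.

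Reads that stopped before the A of CCA were most frequent with wild-type PDE12. For mt-tRNA Thr, 1.63% (1.34 to 1.97) of reads at the discriminator base ended before +3 in PDE12+/+, 0.21% (0.098 to 0.46) in PDE12-/- and 16.8% (16.1 to 17.5) once wild-type PDE12 was expressed. For mt-tRNA Pro the shares were 4.16% (3.51 to 4.92), 1.85% (1.04 to 3.29) and 31.2% (29.7 to 32.7). Between wild-type PDE12 and PDE12-/- the difference was 16.6 points (15.8 to 17.3) and 29.3 points (27.2 to 31.1). In the other 3 libraries the shares ran from 0.36% to 1.73% for mt-tRNA Thr and from 0.82% to 2.13% for mt-tRNA Pro. Over the 22 mt-tRNAs the median was 37.4% with wild-type PDE12 and 3.86% in PDE12-/-, so mt-tRNA Thr, the 19th of 22, and mt-tRNA Pro, the 15th, were in the lower part of the order.

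The place of the stop differed between the pair. In mt-tRNA Thr with wild-type PDE12, 1352 of 9597 reads (14.1%, 13.4 to 14.8) ended at +2 and 1.07% at +1. In mt-tRNA Pro, 15.2% (14.1 to 16.5) ended at +2, 10.8% (9.85 to 11.9) at +1 and 5.12% (4.43 to 5.90) at the discriminator base itself. Among mt-tRNA Thr reads with an incomplete CCA, most thus lacked the A alone, while those of mt-tRNA Pro were spread over all positions. With reads at the discriminator base as the denominator, which counts such reads, the differences in extension between libraries stayed inside the intervals given above for all 10 differences (5 for each mt-tRNA).

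Beyond CCA the added bases were mostly A. Over all positions from +4 on, A made up between 84.3% and 99.9% of mt-tRNA Thr bases and between 89.9% and 99.9% of mt-tRNA Pro bases in the 6 libraries, with the lowest share in both cases with wild-type PDE12 and the highest in PDE12+/+ with mtPAP. In PDE12+/+ the shares were 98.9% and 94.5%, and in PDE12-/- 97.6% and 98.0%.

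C at +4 was the main exception in mt-tRNA Thr. It was on 24 of 1142 reads (2.10%, 1.42 to 3.11) in PDE12+/+, 176 of 1198 (14.7%, 12.8 to 16.8) in PDE12-/- and 4009 of 19034 (21.1%, 20.5 to 21.6) with E351A. In mt-tRNA Pro it was on 26 of 688 reads (3.78%, 2.59 to 5.48), 22 of 247 (8.91%, 5.96 to 13.1) and 237 of 5092 (4.65%, 4.11 to 5.27). With mtPAP it was rarer, 0.32% and 0.24% in PDE12+/+ and 2.66% and 2.01% in PDE12-/-. By this share mt-tRNA Thr was the second of 22 with E351A, after MT-TH with 45.9%, and the 5th of 22 in PDE12-/-. Counting only A at +4 over A at +3 lowered the difference between PDE12-/- and PDE12+/+ to 17.8 points for mt-tRNA Thr and to 16.1 points for mt-tRNA Pro.

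These C reads can be set against the encoded trailer. The trailer of MT-TT has T at +3 and C at +4. In PDE12+/+ the same number of reads, 24, had T at +3 and C at +4, and 21 had the trailer's G at +6. In PDE12-/-, 6 reads had T at +3 and 176 C at +4, and with E351A 13 had T and 4009 C, so most C there followed an A at +3 and is not the trailer's. With wild-type PDE12, 164 reads (2.05% of reads at +3, 1.76 to 2.39) had T at +3 and 158 had C at +4. At +6 and +8, where the trailer has G, 0 reads had G and 156 and 154 had C. The C reads at +8 were 47.4% of the 325 reads left there, so the long mt-tRNA Thr extensions with wild-type PDE12 may hold them. The counts per position do not show which bases share a read.

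mt-tRNA Pro reads carried trailer bases in place of CCA, most often in PDE12+/+. Its trailer begins with T at +1, +2 and +3, then G and T. In PDE12+/+, 347 of 3078 reads (11.3%, 10.2 to 12.4) had T at +1, 331 at +2 and 235 at +3. G at +4 was on 65 reads (9.45% of reads at +4) and T at +5 on 28, while 1 read had the trailer's C at +6. T at +1 was on 13 of 584 reads (2.23%, 1.31 to 3.77) in PDE12-/-, 119 of 3283 (3.62%, 3.04 to 4.32) after wild-type PDE12 and 121 of 10745 (1.13%, 0.94 to 1.34) after E351A. Under mtPAP it was on 5 of 486 reads (1.03%) in PDE12+/+ and 6 of 1223 (0.49%) in PDE12-/-.

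How far the trailer bases went differed between libraries. With wild-type PDE12, T held at 119, 117 and 116 reads over +1 to +3, and G at +4 and T at +5 were each on 43 reads, 19.4% and 26.2% of reads at those positions. In PDE12-/- T within +1 to +3 was at +1 alone, with 0 of 583 at both +2 and +3 (upper Wilson limit 0.655%). In PDE12-/- with mtPAP, T at +2 was on 0 of 1218 reads. No read followed the trailer past +1 in these 2 libraries, so T at +1 does not show trailer reads there. Reads with trailer bases count as extended once they pass +3. Taking only A over A moved extension of mt-tRNA Pro from 23.1% to 22.4% in PDE12+/+. With wild-type PDE12 it moved from 9.32% to 8.00%. Of the 22 mt-tRNA genes, 4 have T as the first trailer base, MT-TP, MT-TN, MT-TS1 and MT-TW. In PDE12+/+, T at +1 was on 23.3% of MT-TN reads (23.0 to 23.6), 2.83% of MT-TS1 reads (1.38 to 5.73) and 0.44% of MT-TW reads (0.30 to 0.64), and the median of all 22 mt-tRNAs was 0.040%. In MT-TT, whose trailer begins with A, trailer bases at +1 and +2 cannot be told apart from added adenines. A at +1 was on 1.82% of its reads in PDE12+/+, 0.99% in PDE12-/- and 4.91% with wild-type PDE12.

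RNA-seq asked whether the level of either transcript changed in PDE12-/-. Each gene has a forward and a reverse count, and the tables do not say whether these are strands of the genome or sense and antisense of the gene. For MT-TT, on the + strand, forward is the gene's own strand under either reading. For MT-TP, on the − strand, it is the gene's own strand only if the columns are sense and antisense. Total counts over the mitochondrial genes ran from 36338 to 104708 per sample, which is not the depth of the libraries. Values below are counts, or CPM, counts scaled to a fixed library total by TMM.

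MT-TT had few counts in either column. The forward counts of MT-TT were 6, 8 and 8 in PDE12+/+ and 8, 6 and 12 in PDE12-/-, and the reverse counts were 31, 74 and 41 against 54, 30 and 82. Genotypes overlapped on both strands. The forward level was 117 ± 29.5 CPM (SD, n = 3) in PDE12+/+ and 97.9 ± 20.1 CPM (SD, n = 3) in PDE12-/-, a log2 fold change of −0.18 (SE 0.57, adjusted p = 0.991 by edgeR's quasi-likelihood test, Benjamini-Hochberg method). The reverse level was 738 ± 197 CPM and 614 ± 201 CPM, a log2 fold change of −0.25 (SE 0.39, adjusted p = 0.966 in the same edgeR test).

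Counts were higher for MT-TP, and almost all were in the forward column. If the columns are strands of the genome, those counts are not mt-tRNA Pro, and its own counts are the reverse ones. The forward counts of MT-TP were 335, 594 and 656 in PDE12+/+ and 479, 457 and 474 in PDE12-/-, between 90.8% and 96.8% of its counts in each sample. After scaling they were 8446, 7297 and 8374 CPM against 5195, 6535 and 4781 CPM. All PDE12-/- samples were below all PDE12+/+ samples, and of the 70 features 14.3% had genotypes that did not overlap in either direction. The log2 fold change was −0.55 (SE 0.34, adjusted p = 0.726 in edgeR's quasi-likelihood test), and an exact two-sided permutation test over the samples gave p = 0.1, the smallest it can give with 3 against 3. The reverse counts were 11, 60 and 32 against 40, 24 and 48, a log2 fold change of −0.21 (SE 0.41, adjusted p = 0.966 in the same edgeR test).

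Of the 4 features of the pair, 0 passed an adjusted p of 0.05 in edgeR, as of all 70 features (0%). At an unadjusted p under 0.05 the counts were 0 of 4 and 5 of 70, and DESeq2 gave 0 of 70 adjusted and 4 unadjusted. With the replicate number as a block, edgeR called 4 of 70 features, none of the pair, and MT-TP forward had a log2 fold change of −0.56 (unadjusted p = 0.0404, adjusted p = 0.257). Scaling by library totals called 2 of 70, none of the pair, and moved the median of all features from −0.016 to 0.20. Under it MT-TP forward was at −0.33, while MT-TT forward (0.078), MT-TT reverse (0.039) and MT-TP reverse (0.14) turned sign. The 22 mt-tRNA genes had median log2 fold changes of −0.032 forward and −0.23 reverse, with 0 called in either direction, and the 8 of the − strand had −0.61 forward and 0.013 reverse. For all 70 features the median was −0.016.

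Per length, MT-TP forward averaged 99.6 CPM per nt over the 6 samples, the third highest of the 44 mt-tRNA features, and MT-TT reached 10.2 CPM per nt in reverse and 1.63 forward. Forward and reverse thus had opposite orders in the neighbouring genes. Of the other neighbours, MT-CYB, the cytochrome b gene before MT-TT on the + strand, had a forward log2 fold change of 0.44 (SE 0.34, adjusted p = 0.784 in the edgeR test). MT-TE, the gene of mt-tRNA Glu, and MT-ND6, the next genes of the − strand, had forward values of 0.052 and 0.060, with overlapping genotypes. Only MT-ND6, a subunit of complex I, had more reverse than forward counts among the genes of the − strand, in 6 of 6 samples. The counts are scaled to mitochondrial genes alone, so a change shared by all of them could go unseen.

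**Figure D4:**
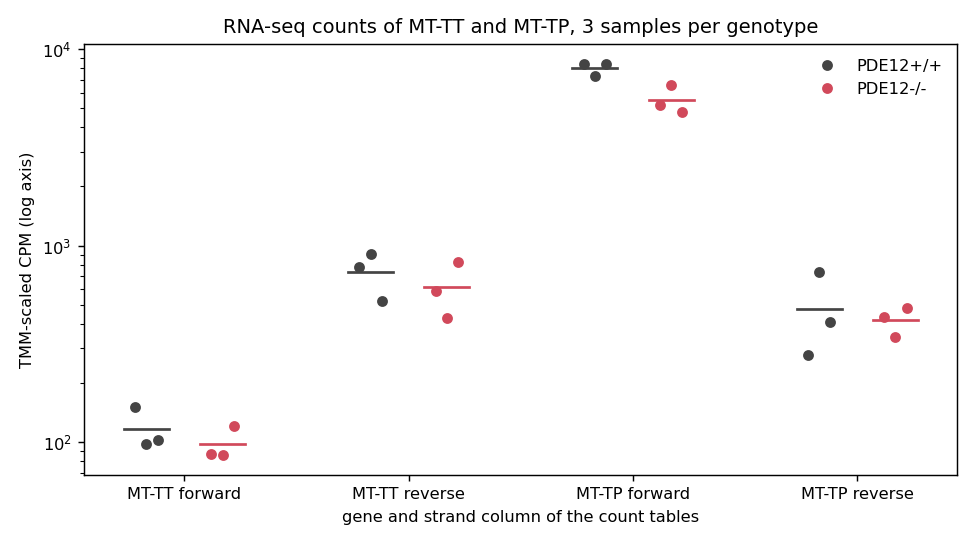
TMM-scaled CPM (y axis, log scale) of MT-TT and MT-TP in each strand column (x axis), with 3 PDE12+/+ samples in grey, 3 PDE12-/- samples in red and group means as lines. Of the 4 features shown, only MT-TP forward has genotypes that do not overlap (7297 to 8446 CPM against 4781 to 6535 CPM).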

How the data were processed

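RNA-seq counts and MPAT-Seq position tables were analysed. Members and gene lists were chosen with earlier results of these data known. For RNA-seq, the authors trimmed reads, mapped them to GRCh38 with Bowtie2, parted the strands and deposited raw counts of each gene and strand. MPAT-Seq reads were stripped of primers by the authors, mapped to mt-tRNAs followed by uncalled bases and deposited as unnormalized read counts per position and base. A table printed as MT-TT that starts at position 68 in the PDE12+/+ library is that of MT-TD, and the one at 66 was used. Extension is reads at +4 over reads at +3. edgeR 4.0.16 (R 4.3.3; TMM, common dispersion, quasi-likelihood) was run on genotype alone over 70 RNA-seq features and tested on 20 simulated data sets. DESeq2 1.42.0 was an alternative. Same-numbered samples of the 2 genotypes deviated together (correlations 0.25 to 0.61 over 37 features), so the replicate number was also used as a block. Whether numbered samples are separate cultures is not stated, so p-values measure the spread between samples. Intervals come from SciPy 1.17.1. Named genes were the pair, their neighbours MT-CYB, MT-ND6 and MT-TE, and the 3 mt-tRNAs nearest to each in extension. Others were named after their values were seen.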

Additional observations from a re-analysis of the deposited data

How the results depend on the processing

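Of 36 alternative values of the MPAT-Seq differences, 18 stayed within the interval of the reported difference, 17 moved out of it with the same sign and 1 changed sign. Counting reads at +5 in place of +4 gave −5.17 points for MT-TP with E351A against PDE12-/-, the change of sign. For MT-TT it gave 31.1 points between PDE12-/- and PDE12+/+, −35.7 with wild-type PDE12, 43.7 with E351A and 56.7 with mtPAP in PDE12+/+. For MT-TP it gave 26.7 points between PDE12-/- and PDE12+/+, 70.9 with mtPAP in PDE12+/+ and 46.2 with mtPAP in PDE12-/-. The shares of reads with 1 added base account for these moves by construction. Counting only A at +4 and +3 gave, for MT-TT, 17.8 points between PDE12-/- and PDE12+/+, −29.2 with wild-type PDE12, 33.4 with E351A and 54.3 with mtPAP in PDE12-/-. Taking the mtPAP genotypes from the labels gave 74.2 and 25.4 points for MT-TT and 71.4 and 44.9 for MT-TP. A long tail of at least 4 nt gave differences of 48.5 points for MT-TT and 43.1 for MT-TP between PDE12-/- and PDE12+/+.

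Of 39 alternative RNA-seq fold changes of the pair, 4 changed sign and 0 passed the threshold. Library totals without TMM gave log2 fold changes of 0.078 for MT-TT forward, 0.039 for MT-TT reverse and 0.14 for MT-TP reverse, and 2 called features. The replicate block, with the numbers pairing the samples, gave 4 called features and changed no call of the pair. Without one sample, the log2 fold change ran from −0.38 to −0.019 for MT-TT forward, −0.53 to −0.055 for MT-TT reverse, −0.69 to −0.34 for MT-TP forward and −0.44 to 0.27 for MT-TP reverse, which turned sign without PDE12+/+ replicate 2 (0.27). The filter of 10 counts in every sample removed MT-TT forward, so no value was had. With 1 MPAT-Seq library per condition, the spread between libraries is unknown. At 486 and 583 reads, MT-TP intervals span several points, and forward counts of MT-TT of 6 to 12 limit its fold change.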
